A study of Mus musculus with 10 samples.

Results

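The Peg3 domain is a cluster of imprinted genes on proximal mouse chromosome 7, and its DNA methylation was read at single cytosines in sorted spermatogonia. Its 4 named genes are Peg3, Usp29, Zim1 and Zfp264, and the cytosines were taken from the span of each gene plus 5 kb either side, with at least 5 reads in both libraries. Peg3, Usp29 and Zim1 had a span in the gene table used, and Zfp264 is named only. The windows of these 3 genes run together from 6669444 to 6972220 (mm10) and hold 855 of the 6745376 cytosines in the table, in 561 CpGs. The Peg3 window holds 105 cytosines, the Usp29 window 662 and the Zim1 window 135. Of these, 42 lie in the windows of both Peg3 and Usp29 and 5 in those of both Zim1 and Peg3.

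Reduced-representation bisulfite sequencing (RRBS), which reads restriction fragments after unmethylated cytosines have been converted, was applied to spermatogonia from testes of pups at postnatal day 6. The mice were of the LT-11B6 line, which carries an Id4-eGfp transgene on a C57BL/6 background, and ID4-EGFP+ cells were separated by how strongly an antibody to TSPAN8, a cell surface protein, stained them. The most strongly stained cells made up the TSPAN8-high fraction and the most weakly stained the TSPAN8-low fraction, and both were positive for the reporter. DNA from 5 pooled sorts gave 1 library per fraction, so no error between replicates could be given, and every test compares the 2 libraries and not the conditions. Reads over the table came to 83658949 in TSPAN8-high against 83773700 in TSPAN8-low, and the domain had 10449 of them in TSPAN8-high against 10650 in TSPAN8-low. The median cytosine of the domain had 10 reads in either library. Promoter windows of 8 germ cell genes, among them the RNA helicase gene Ddx4 and the RNA-binding protein gene Dazl, which somatic cells keep methylated, lay at 0.568% to 12.3% in TSPAN8-high against 0.972% to 15.6% in TSPAN8-low. Intervals are 95% intervals and cover counting error only, since the reads carry no molecular identifiers and may be copies of 1 molecule.

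Imprinted genes are expressed from the copy of a single parent, under the control of regions that are methylated in the egg or in sperm. The control region of the Peg3 domain is methylated in the egg, so somatic cells carry it methylated on the maternal chromosome and unmethylated on the paternal one. In germ cells inherited imprints are erased and later set anew by sex, and in the male line this region is known to be left unmethylated. Peg3 encodes a large zinc finger protein and Usp29 a ubiquitin-specific protease. Both are expressed from the paternal copy and are read in opposite directions from a shared start that holds the control region. Zim1 encodes a zinc finger protein and is expressed from the maternal copy, and Zfp264 encodes a zinc finger protein expressed from the paternal copy.

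The annotated starts of Peg3 (minus strand, 6730419) and Usp29 (plus strand, 6730583) lie 164 bp apart. The bases between them (chr7:6730420-6730582, GRCm38, plus strand, from RefSeq) are printed because they are the core of the shared start, with the CpGs in capitals. The other sequence is the 250 bases upstream of the start of Zim1 (chr7:6696433-6696682, minus strand), shown because each of its 14 CpGs was read in both libraries.
Peg3 to Usp29: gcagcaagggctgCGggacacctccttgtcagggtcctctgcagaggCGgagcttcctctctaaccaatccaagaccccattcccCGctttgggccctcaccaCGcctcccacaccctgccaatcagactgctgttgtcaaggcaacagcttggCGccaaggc
Zim1: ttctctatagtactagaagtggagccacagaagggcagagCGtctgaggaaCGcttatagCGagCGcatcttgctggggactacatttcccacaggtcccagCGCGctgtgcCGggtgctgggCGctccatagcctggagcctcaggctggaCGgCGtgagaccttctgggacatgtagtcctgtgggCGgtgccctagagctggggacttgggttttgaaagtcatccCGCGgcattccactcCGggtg
None of the 5 CpGs in the first sequence was listed in the table, so the values of the shared start come from the cytosines on either side of it. The 300 bases around each start in the RefSeq table hold 13 CpGs at Peg3, 17 at Usp29 and 20 at Zim1, against a median of 7 over 32851 promoters. The hexamer TGCCGC, bound when methylated by the imprint protector ZFP57, was searched on both strands in these windows of 300 bases. It occurs 1 time at Zim1, as GCGGCA in the printed sequence, and at neither Peg3 nor Usp29, and 11.6% of all promoters hold it. GCCATNTT, a core of sites of the factor YY1, occurs in none of the 3 windows and in 6.05% of all promoters. The rest of the control region was not searched for either motif, so it may hold them.

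The control region was unmethylated in both fractions. Within 1 kb of the shared start (6729462 to 6731559), 3 of 404 reads were methylated in TSPAN8-high against 3 of 379 in TSPAN8-low. The TSPAN8-high level was 0.743%, with an exact interval from 0.153 to 2.15, and the TSPAN8-low level 0.792%, with one from 0.164 to 2.30, over 22 cytosines in 16 CpGs. Neither library came near the levels of methylated DNA in the same domain, and 17 of the 22 cytosines had no methylated read in either. The difference, TSPAN8-high minus TSPAN8-low, was -0.0490 percentage points (Newcombe interval -1.64 to 1.46). The windows of Peg3 and Usp29, centred on either gene, gave an adjusted p of 1 each by Fisher's exact test over the start windows of 30023 genes. Start windows were called where the adjusted p was below 0.05 with 10 or more percentage points between the libraries. This held for 0.963% of all start windows and for none of the 3 members' windows, and none of the 3 had an unadjusted p below 0.05, against 15.7% of all start windows. The windows of Peg3 (6729462 to 6731462, 21 cytosines) and Usp29 (6729559 to 6731559, 22 cytosines) overlap almost fully, so they are not separate results. With 3 windows, a count of 0 does not stand apart from either share. A window this low in both libraries cannot differ by 10 points, and the sign of the difference turned in 3 of 8 other settings at each of Peg3 and Usp29. Levels below 5% in both libraries were found at 43.5% of all start windows.

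The few methylated reads lay at 5 cytosines of the window. The cytosine with the highest level, 504 bp from the midpoint of the shared start on the Peg3 side (6730006), had 0 of 7 methylated reads in TSPAN8-high against 1 of 7 in TSPAN8-low. A cytosine 248 bp away on the same side (6730262) had 0 of 13 in TSPAN8-high against 1 of 14 in TSPAN8-low, and one 726 bp away (6729784) had 1 of 17 in TSPAN8-high against 1 of 15 in TSPAN8-low. At 6729900 and 6729912 the counts were the same, 1 of 17 in TSPAN8-high against 0 of 15 in TSPAN8-low. No cytosine of the window thus had more than 1 methylated read in either library. The 3 in TSPAN8-high lay close together on the plus strand at equal depth (6729784, 6729900 and 6729912), and whether they came from 1 fragment counted at each was not tested. The most deeply read cytosines, at 6730291, 6730301 and 6730280, had 0 of 48, 0 of 48 and 0 of 47 in TSPAN8-high, and 0 of 36, 0 of 36 and 0 of 34 in TSPAN8-low. The Usp29 side had 4 cytosines, with 0 of 47 reads in TSPAN8-high against 0 of 40 in TSPAN8-low, which allows levels of up to 6.38% in TSPAN8-high against 7.5% in TSPAN8-low. On the plus strand 3 of 212 reads were methylated in TSPAN8-high against 2 of 226 in TSPAN8-low, and on the minus strand 0 of 192 in TSPAN8-high against 1 of 153 in TSPAN8-low.

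**Figure D1:**
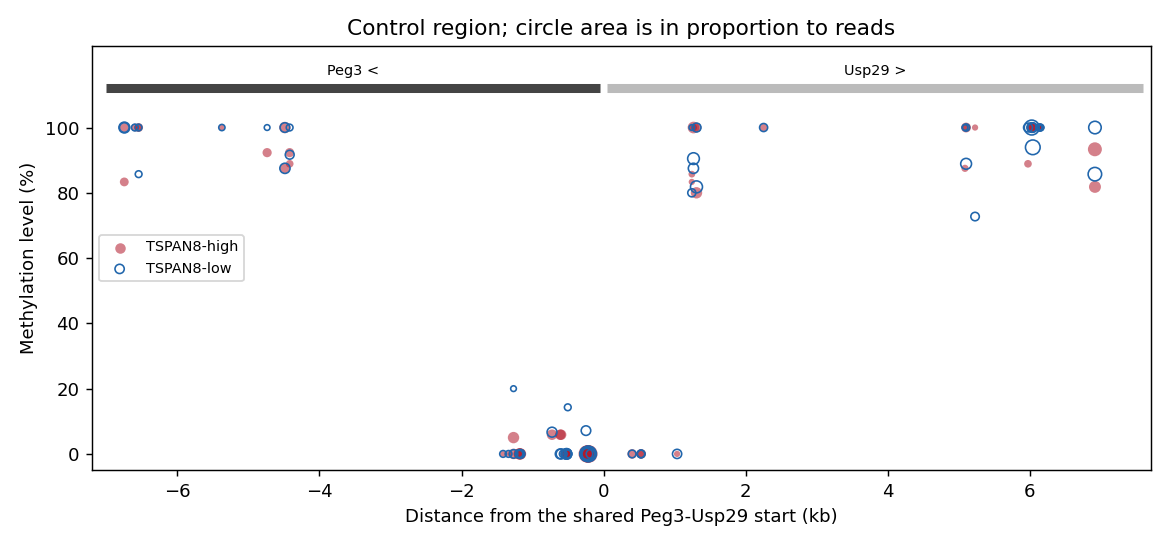
Methylation level (percent) of each cytosine against distance in kb from the shared Peg3-Usp29 start, with filled circles for TSPAN8-high, open circles for TSPAN8-low and circle area in proportion to reads. Cytosines within about 1 kb of the start lie at or near 0% in both libraries, and the cytosines drawn on both flanks lie at 80% or more, other than 1 at 72.7% in TSPAN8-low.

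The unmethylated region had a sharp edge on the Usp29 side. Listed cytosines at 20% or less in both libraries ran without a break from 6729095 to 6731545, and 4 of 527 reads over these 30 cytosines were methylated in TSPAN8-high against 4 of 450 in TSPAN8-low. On the Usp29 side the next listed cytosine, 207 bp further on at 6731752, had 5 of 6 methylated reads in TSPAN8-high against 8 of 10 in TSPAN8-low. The 6 cytosines within 100 bp from there stood at 92.1% of 76 reads in TSPAN8-high against 88.4% of 86 reads in TSPAN8-low. The change from unmethylated to methylated DNA therefore fell within the same 207 bp in both fractions. On the Peg3 side the edge could not be placed as closely, because no cytosine was listed over 3004 bp. The nearest one beyond, at 6726091, had 8 of 9 methylated reads in TSPAN8-high against 11 of 12 in TSPAN8-low, and the 5 nearest beyond stood at 93.0% in TSPAN8-high against 94.4% in TSPAN8-low.

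Most listed cytosines of the domain were methylated, and none of the 3 gene spans differed between the fractions beyond the counting error. Peg3 with 5 kb either side (6698892 to 6735462) stood at 51.1% of 1484 reads in TSPAN8-high against 51.7% of 1357 reads in TSPAN8-low, a difference of -0.586 points (Newcombe interval -4.26 to 3.09). Usp29 (6725559 to 6972220) stood at 75.4% of 8229 reads in TSPAN8-high against 76.5% of 8401 in TSPAN8-low, a difference of -1.15 points (-2.45 to 0.152). Zim1 (6669444 to 6701540) stood at 47.4% of 1503 reads in TSPAN8-high against 46.7% of 1570 in TSPAN8-low, a difference of 0.684 points (-2.84 to 4.21). The adjusted p values, by Fisher's exact test over 46465 gene spans, were 0.919 for Peg3, 0.285 for Usp29 and 0.896 for Zim1. None of the 3 spans was called, against 1.14% of all spans, and none had an unadjusted p below 0.05, against 24.2% of all spans. With 3 spans, a count of 0 does not stand apart from either share. The median difference over all spans was -0.468 points. Reads that span more than 1 CpG enter once for each of them, so the p values are smaller than they should be. For each gene the sign turned in 2 or more of 8 other settings, over which the difference ranged from -4.41 to 0.448 points at Peg3, -1.78 to 1.23 at Usp29 and -2.52 to 4.43 at Zim1.

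The pooled body level was highest in Usp29 and lowest in Zim1 in both libraries, with no test of that order. It depends on how many reads fell on the unmethylated runs inside the bodies, which are described below. The run inside Zim1 took 497 of 951 body reads in TSPAN8-high against 571 of 1041 in TSPAN8-low. The run inside Peg3 took 172 reads in TSPAN8-high against 164 in TSPAN8-low. The Peg3 body also holds 8 cytosines of the low run at the shared start, with 123 reads in TSPAN8-high against 71 in TSPAN8-low. In the bodies, more than 1 kb from both ends, Usp29 had 5962 of 7450 methylated reads in TSPAN8-high against 6153 of 7664 in TSPAN8-low over 607 cytosines. The body of Peg3 stood at 59.6% in TSPAN8-high against 63.5% in TSPAN8-low over 62 cytosines, a difference of -3.88 points (Newcombe interval -8.78 to 1.06). Its unweighted mean over cytosines was 66.3% in TSPAN8-high against 65.3% in TSPAN8-low, which turned the sign. The body of Zim1 stood at 43.6% in TSPAN8-high against 41.1% in TSPAN8-low over 87 cytosines (difference 2.52 points, -1.82 to 6.86). Its unweighted mean, 46.2% in TSPAN8-high against 46.8% in TSPAN8-low, turned the sign as well. The ends away from the starts were methylated. Within 1 kb of that end, Usp29 had 129 of 138 methylated reads in TSPAN8-high against 179 of 191 in TSPAN8-low, and Peg3 had 110 of 114 in TSPAN8-high against 61 of 61 in TSPAN8-low. Zim1 had a single listed cytosine there, with 6 of 6 in each library.

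**Figure D2:**
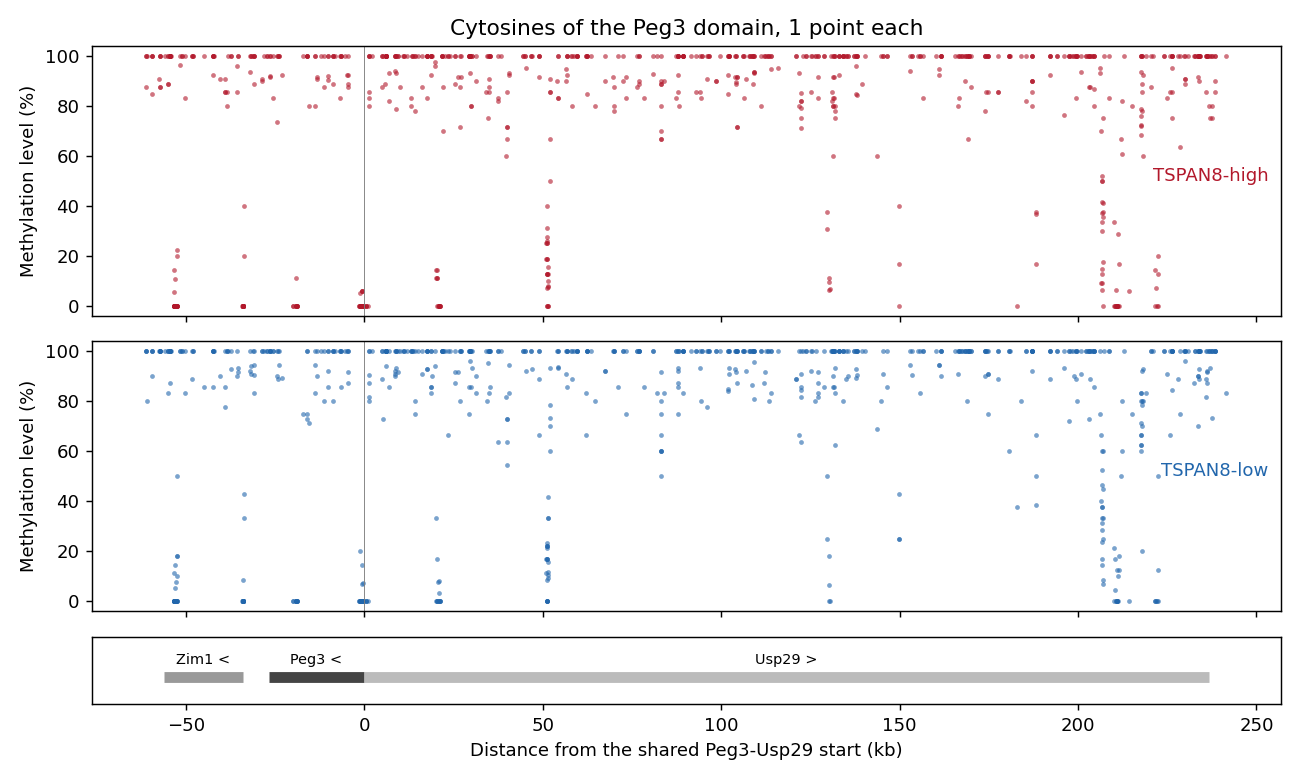
Methylation level (percent) of each of the 855 cytosines against distance in kb from the shared start, TSPAN8-high above and TSPAN8-low below, with bars for the spans of Zim1, Peg3 and Usp29 and marks for their direction. Most cytosines lie above 80% in both panels, and 155 lie below 20% in both, in narrow columns.

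The start of Zim1, the maternally expressed member, was unmethylated in both fractions as well. In the printed bases upstream of it, 0 of 239 reads were methylated in TSPAN8-high, which allows up to 1.26%, and 1 of 205 in TSPAN8-low (0.488%, exact interval 0.0123 to 2.69), over 22 cytosines of the 14 CpGs. The single methylated read lay 98 bp upstream of the start, at a cytosine with 0 of 8 in TSPAN8-high against 1 of 12 in TSPAN8-low. Levels were higher at the 2 other listed cytosines of the window, 516 and 531 bp upstream, where together 3 of 10 reads were methylated in TSPAN8-high against 5 of 13 in TSPAN8-low. The whole start window (6695540 to 6697540) stood at 1.20% of 249 reads in TSPAN8-high against 2.75% of 218 in TSPAN8-low, a difference of -1.55 points (Newcombe interval -4.77 to 1.17, adjusted p = 0.734 by Fisher's exact test over all start windows). With 2 kb either side the level was 19.9% in TSPAN8-high against 17.3% in TSPAN8-low, which turned the sign, and with 1 CpG kept per 100 bp the difference was -5.12 points.

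Unmethylated DNA was not limited to the starts. Runs of consecutive listed cytosines below 20% in both libraries, with at least 3 CpGs, numbered 9 and held 138 of the 855 cytosines. These runs were chosen by their levels, so the levels are a description. The run with most cytosines lay inside Zim1 (6677182 to 6678079), towards the end away from its start, and held 42 cytosines in 26 CpGs. There 6 of 497 reads were methylated in TSPAN8-high against 7 of 571 in TSPAN8-low, and the next listed cytosines stood at 100% in both libraries on one side and at 22.2% in TSPAN8-high against 18.2% in TSPAN8-low on the other. Another lay inside Peg3 (6710556 to 6711624), with 6 of 172 methylated reads in TSPAN8-high against 0 of 164 in TSPAN8-low over 11 cytosines. All 6 of those reads came from 1 cytosine, at 6711459 on the plus strand, which had 6 of 54 in TSPAN8-high against 0 of 36 in TSPAN8-low, while its partner on the minus strand had 0 of 12 in TSPAN8-high against 0 of 20 in TSPAN8-low. The antisense RNA gene Peg3os, at 6706760 to 6707624, also lies inside Peg3, and its span with 5 kb either side stood at 55.5% in TSPAN8-high against 53.7% in TSPAN8-low. That window takes in the whole unmethylated run inside Peg3, so its pooled level is not a trait of Peg3os alone.

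Usp29 held 5 further runs below 20%, from 20.3 to 222.3 kb beyond the shared start. Their levels ran from 0.806% to 9.43% in TSPAN8-high and from 2.70% to 9.30% in TSPAN8-low, over 36 cytosines in all. The nearest one (6750791 to 6751867) had 4 of 153 methylated reads in TSPAN8-high against 10 of 237 in TSPAN8-low. A run further along (6940757 to 6941585) had 1 of 124 in TSPAN8-high against 5 of 159 in TSPAN8-low. Over all 9 runs, the level was 1.78% in TSPAN8-high against 1.79% in TSPAN8-low, and over the other 717 cytosines 86.1% in TSPAN8-high against 87.0% in TSPAN8-low.

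**Figure D3:**
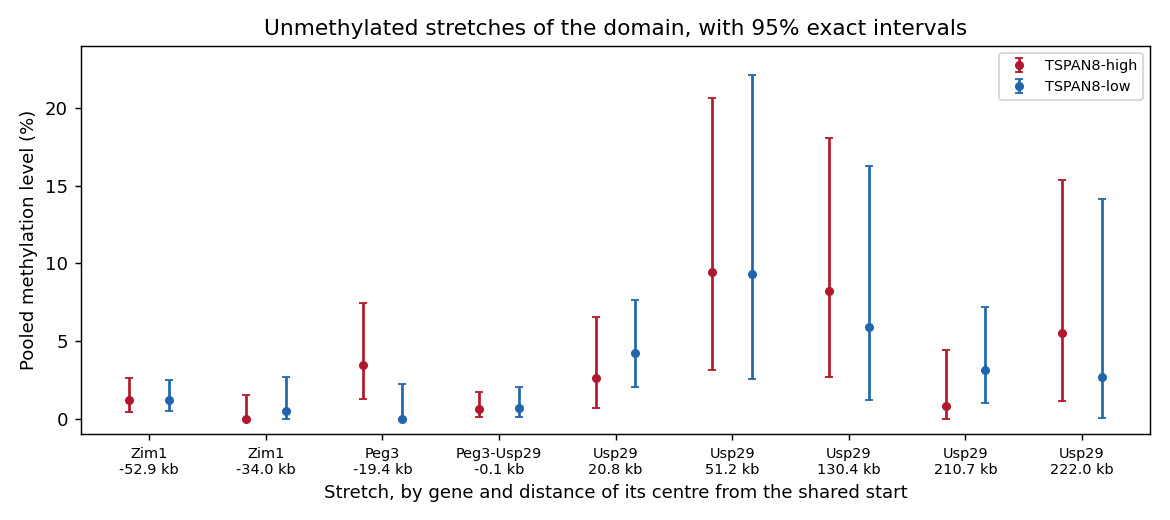
Pooled methylation level (percent) of the 9 unmethylated runs, placed by gene and by distance in kb from the shared start, with TSPAN8-high left of TSPAN8-low and 95% exact intervals as bars. The run at the shared start is at 0.604% in TSPAN8-high against 0.696% in TSPAN8-low, and the widest intervals belong to Usp29 runs with few reads.

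Partly methylated DNA made up a small share of the domain in each fraction. Levels from 20% to 80% were found at 95 positions in TSPAN8-high against 114 in TSPAN8-low, which is 11.1% of the domain in TSPAN8-high against 13.3% in TSPAN8-low. Over the whole table the share was 11.8% in TSPAN8-high against 11.3% in TSPAN8-low. Levels above 80% were found at 588 positions in TSPAN8-high against 577 in TSPAN8-low, and levels below 20% at 172 in TSPAN8-high against 164 in TSPAN8-low. No cytosine was below 20% in one library and above 80% in the other. Of 81 tiles of 1 kb with at least 3 CpGs, 9 were below 20% in both libraries, 7 between 20% and 80% in both and 61 above 80% in both. The partly methylated tile with most reads lay in Usp29 (6937001 to 6938000), with 95 of 287 methylated reads in TSPAN8-high against 94 of 271 in TSPAN8-low. A tile of Usp29 at 6781001 to 6782000, with 22 cytosines, stood at 15.6% of 377 reads in TSPAN8-high against 16.2% of 297 in TSPAN8-low. This tile holds the run at 6781649 to 6781823.

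No cytosine and no tile of the domain was called between the fractions. Among single cytosines 0 of 855 were called by Fisher's exact test (adjusted p below 0.05, with 20 or more points between the libraries), against 0.00111% of the whole table. An unadjusted p below 0.05 was reached by 11 of them, 3 higher and 8 lower in TSPAN8-high, which is 1.29% of the domain against 1.46% of the table. The lowest unadjusted p, 0.00806 by Fisher's exact test, stood at 6781968 in Usp29, with 0 of 16 methylated reads in TSPAN8-high against 5 of 12 in TSPAN8-low (adjusted p = 1). In the same tile, 6781831 went the other way, with 7 of 27 in TSPAN8-high against 0 of 18 in TSPAN8-low, and the tile as a whole differed by -0.512 points (Newcombe interval -6.20 to 4.98). Equal levels in both libraries were found at 398 cytosines, 226 were higher in TSPAN8-high and 231 lower.

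Cytosines differed between the fractions by about as much as the strands of 1 library differed, with no test of that likeness. Over the 294 CpGs listed on both strands, plus and minus cytosines of the same CpG differed on average by 7.17 points in TSPAN8-high against 7.51 points in TSPAN8-low. The same cytosines differed by 6.92 points on average between the fractions. A cytosine with 10 reads in each library, methylated in every read of one and in none of the other, has a p of 1.08e-05 by Fisher's exact test, above the largest p that passed over the table, 1.28e-06. Only 363 of the 855 cytosines had enough reads to reach a p that low at all, so a change at a single cytosine was not detectable at the others.

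Among tiles, 0 of 81 were called with the minimum set at 10 points, against 0.268% of 584828 tiles in the table, and 8 had an unadjusted p below 0.05 by Fisher's exact test, which is 9.88% against 8.60% of the table. Tiles with at least 5 CpGs and 100 reads in each library numbered 20. Among them the largest higher level in TSPAN8-high was in the Zim1 tile at 6678001 to 6679000, which takes in the end of the unmethylated run there. It had 51 of 101 methylated reads in TSPAN8-high against 40 of 103 in TSPAN8-low, a difference of 11.7 points (Newcombe interval -1.94 to 24.7, adjusted p = 0.748 by Fisher's exact test). Most methylated reads of this tile came from the CpG at 6678961. Its plus strand had 19 of 19 in TSPAN8-high against 14 of 14 in TSPAN8-low, and its minus strand 28 of 29 in TSPAN8-high against 16 of 16 in TSPAN8-low. The pooled difference of the tile depends on how many reads fell there in each library. Next came a Usp29 tile (6948001 to 6949000) at 83.5% in TSPAN8-high against 76.6% in TSPAN8-low, and then the Peg3 tile of its unmethylated run (6711001 to 6712000) at 4.23% in TSPAN8-high against 0 of 134 reads in TSPAN8-low, which allows up to 2.24%. The largest lower level was in Usp29 (6834001 to 6835000), with 172 of 189 in TSPAN8-high against 159 of 163 in TSPAN8-low, a difference of -6.54 points (-11.7 to -1.59, adjusted p = 0.354 by Fisher's exact test). The Usp29 tile at 6852001 followed, with 96 of 120 reads in TSPAN8-high against 101 of 120 in TSPAN8-low. The Usp29 tile at 6751001 had 0 of 114 reads in TSPAN8-high, which allows up to 2.63%, against 4.10% in TSPAN8-low. Larger falls stood at Usp29 tiles below the minimum of CpGs or reads. The tile at 6861001 had 44 of 52 methylated reads in TSPAN8-high against 71 of 72 in TSPAN8-low, a difference of -14.0 points (-26.2 to -4.44). The one at 6800001 had 29 of 34 in TSPAN8-high against 38 of 38 in TSPAN8-low. Over all 81 tiles, 41 were higher and 37 lower in TSPAN8-high. The median tile differed by 0.336 points in the domain and by 0 in the table.

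**Figure D4:**
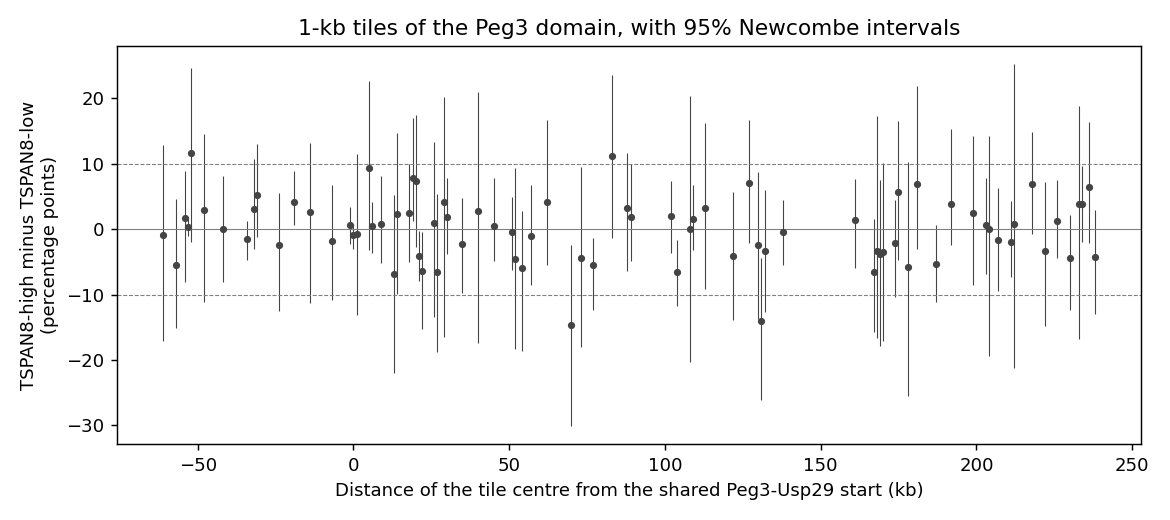
Difference in methylation level, TSPAN8-high minus TSPAN8-low in percentage points, of the 81 tiles of 1 kb against distance in kb from the shared start, with 95% Newcombe intervals as bars and dashed lines at 10 points either side of 0. Tiles scatter on both sides of 0 (41 higher, 37 lower and 3 equal), and none was called.

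The control region was set beside other imprinted regions of these libraries. Of 9 regions that are methylated in the egg, 8 had a start window with at least 5 CpGs, and their levels ran from 0.290% to 13.2% in TSPAN8-high and from 0.446% to 13.4% in TSPAN8-low. Peg10, a gene derived from a retrotransposon, and Nnat, which encodes neuronatin, were lowest in both libraries, Peg10 at 0.290% in TSPAN8-high against 0.446% in TSPAN8-low and Nnat at 0.792% in TSPAN8-high against 0.496% in TSPAN8-low. Mest, a gene of the hydrolase family, was highest, at 13.2% in TSPAN8-high against 13.4% in TSPAN8-low. The 3 regions methylated in sperm had high levels. The region upstream of H19 stood at 98.4% in TSPAN8-high against 97.1% in TSPAN8-low. That of Meg3 stood at 95.4% in TSPAN8-high against 97.2% in TSPAN8-low. That of Rasgrf1 stood at 82.1% in TSPAN8-high against 80.2% in TSPAN8-low. The domain outside its unmethylated runs was high too, at 86.1% in TSPAN8-high against 87.0% in TSPAN8-low. Over the whole table, 68.9% of cytosines lay above 80% in TSPAN8-high against 69.4% in TSPAN8-low. High levels at these 3 regions therefore cannot tell an imprint from other methylated DNA. Of the 8 windows, Kcnq1ot1, a long non-coding RNA gene, stood at 2.97% in TSPAN8-high against 8.28% in TSPAN8-low, and Plagl1, a zinc finger gene, at 2.78% in TSPAN8-high against 1.04% in TSPAN8-low. Their adjusted p values were 0.0144 and 0.0279 by Fisher's exact test, with differences of -5.31 and 1.74 points that were under the minimum of 10. The Peg3 level was not tested against these regions.

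**Figure D5:**
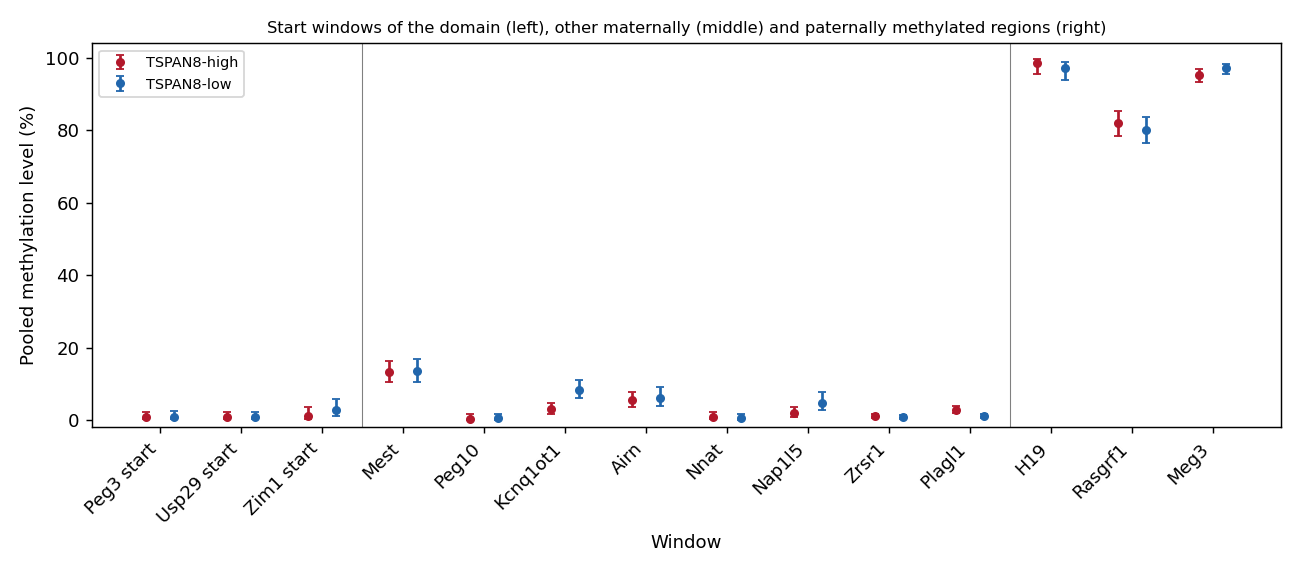
Pooled methylation level (percent) of the start windows of Peg3, Usp29 and Zim1 (left), of 8 other regions methylated in the egg (middle) and of 3 regions methylated in sperm (right), with TSPAN8-high left of TSPAN8-low and 95% exact intervals as bars. The start windows of the domain lie below 3% in both libraries, and the regions methylated in sperm lie above 80%.

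Among 8038 protein-coding genes with at least 20 CpGs at the start and 20 in the body, the genes most like Peg3 in start and body level over both libraries were BC034090, the PR domain gene Prdm11 and Sertm1. The absolute differences from Peg3, summed over the 4 levels, were 1.29 points for BC034090, 1.54 for Prdm11 and 1.61 for Sertm1. Peg3 itself had 15 CpGs at the start and 41 in the body. Its body level pools methylated DNA with the unmethylated run inside Peg3 and 8 cytosines of the low run at the shared start. The start of Prdm11 stood at 1.10% in TSPAN8-high against 0.696% in TSPAN8-low and its body at 59.0% in TSPAN8-high against 63.0% in TSPAN8-low.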

How the data were processed

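DNA methylation was measured by RRBS in 1 TSPAN8-high and 1 TSPAN8-low library (300 ng DNA, BfaI, MseI and MspI digest, paired reads of 50 bp, per the labels' protocols), and the 8 chromatin samples of the series were not analysed here. Levels were deposited as a fraction of reads that were methylated, given to 2 decimals. Coverage was deposited as read counts, none below 5. The authors' deposited difference and p-value columns were not used. Bowtie, SICER, mm10 and mm9 are named in the submitters' processing notes, with no assay, and the aligner and methylation caller of RRBS are not given in the sources used here. The build was checked: all 231700 listed cytosines inside RefSeq promoter windows fell on a CG of GRCm38.p6 (mm10).

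Methylated reads were computed as level times reads, rounded. The start window reached 1 kb either side of the gene end with more listed CpGs, which was the end with the annotated start for Peg3, Usp29 and Zim1. Fisher's exact tests, two-sided, were run on single cytosines, on 1-kb tiles holding 3 or more CpGs, and on start windows and gene spans with at least 5 CpGs, with Benjamini-Hochberg adjustment over the whole table, and were tested on simulated data (Python 3.11.15, numpy 2.4.6, scipy 1.17.1). Single levels have exact Clopper-Pearson intervals and differences Newcombe intervals. A level of 0 was instead given as allowing up to 3 reads of the total. That limit is lower than the exact upper limit, for example 6.38% against 7.55% for 0 of 47 reads. The region upstream of H19 was taken at 1 to 5 kb, that of Meg3 at 10 to 16 kb and that of Rasgrf1 at 25 to 35 kb. Named cytosines and tiles were the called ones or, with none called, the 3 tiles with the largest difference in each direction among those with at least 5 CpGs and 100 reads. In the control region they were those with methylated reads and the 3 with most reads. The cytosines at 6781968, 6781831, 6711459, 6678961 and 6678962, the tiles at 6937001, 6781001, 6861001 and 6800001 and the runs below 20% were chosen after their values were seen. The members and lists were chosen with earlier results of these data known. Alternatives were at least 10 or 20 reads, 1 strand, 1 CpG per 100 bp, unweighted means, no very deep cytosines, other window sizes and no minimum difference.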

Additional observations from a re-analysis of the deposited data

How the results depend on the processing

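No start window or gene span of Peg3, Usp29 or Zim1 was called under the alternatives with a test, which leave out the unweighted means and did not include dropping the minimum difference. No cytosine or tile of the domain was called with at least 10 or 20 reads, with no minimum difference or without very deep cytosines, nor any tile with 1 CpG per 100 bp; single strands were not run for these. Neither the signs nor the sizes of the small differences were stable. Over 8 alternatives each, the start windows ranged from -2.65 to 0.517 points at Peg3, -2.65 to 0.530 at Usp29 and -5.12 to 2.63 at Zim1, and the gene spans from -4.41 to 0.448 at Peg3, -1.78 to 1.23 at Usp29 and -2.52 to 4.43 at Zim1. The lowest values at the Peg3 and Usp29 starts came with 2 kb either side. The Peg3 span was -2.70 with at least 10 reads, -4.41 with at least 20 and -3.34 with 1 CpG per 100 bp, and the Zim1 span 3.02 with at least 10 reads, 4.43 with at least 20 and 4.11 on the minus strand. The following turned the sign. At the start windows the difference, -0.0659 points at Peg3 and -0.0490 at Usp29, was 0.244 at both with at least 10 reads, 0.517 at Peg3 and 0.530 at Usp29 on the plus strand, and 0.452 and 0.479 with 1 CpG per 100 bp. At the Zim1 start it was 2.63 with 2 kb either side. At the gene spans, the difference of Peg3 was 0.0119 on the plus strand and 0.448 as an unweighted mean, and that of Usp29 was 1.23 with at least 20 reads and 0.0332 as an unweighted mean. At Zim1 it was -2.52 on the plus strand, -2.28 with 1 CpG per 100 bp and -0.452 as an unweighted mean. The cause was not tested. The start windows had fewer than 5 CpGs at 20 or more reads, so no value was given there, and with 1 CpG per 100 bp no minimum of CpGs was set. No paired analysis was possible because each fraction gave 1 library. With 1 library each, leaving out a library was not possible either. Depth limits the single cytosines, at a median of 10 reads per library.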

Other observations

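The neighbourhood of the domain, taken as the 27 other genes within 250 kb either side of the member windows, was measured in the same way. Of 27 gene spans with 5 kb either side 0 were called, against 1.14% of all spans, and of 11 measured start windows 0 were called, against 0.963% of all start windows, by Fisher's exact test adjusted over all genes. Counts of 0 among so few are near those shares. Of these start windows 8 were below 20% in both libraries and 1 above 80% in both. The windows of Zim3 and the pseudogene LOC115485607 overlap, so these counts are not all of separate DNA. The start of a neighbour is the gene end with more listed CpGs, with no annotated start set beside it. Zim3, a non-coding RNA gene that overlaps the far end of Usp29, had an unmethylated start at 3.19% in TSPAN8-high against 1.28% in TSPAN8-low. Aurkc, a kinase gene of meiosis, had a start at 8.16% in TSPAN8-high against 12.1% in TSPAN8-low. Its span with 5 kb either side stood at 59.8% in TSPAN8-high against 69.5% in TSPAN8-low, a difference of -9.70 points with an adjusted p of 0.0188 by Fisher's exact test, below the minimum difference of 10. The zinc finger gene Zfp418 stood at 0.490% in TSPAN8-high against 0.787% in TSPAN8-low at its start, and Zfp773 at 77.3% in TSPAN8-high against 72.3% in TSPAN8-low. No cytosine was listed within the microRNA gene Mir3099 itself, which lies inside Usp29. The 5 kb on either side of it stood at 92.0% in TSPAN8-high against 98.6% in TSPAN8-low, a difference of -6.62 points with an adjusted p of 0.0238 by Fisher's exact test, over 10 CpGs. This difference was under the minimum of 10 points as well. An unadjusted p below 0.05 by the same test was reached by 24.2% of all spans, so low p values at Aurkc and Mir3099 do not set them apart.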
